A study of Mus musculus with 9 samples.

Results

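Hmgcs1, Sqle, Idi1, Insig1, Cyp51, Lss, Fdft1 and Srebf2 are genes of sterol synthesis and its control by SREBP2. They were chosen by name and were found as 8 of the 23337 genes in the counts of CD11b+ bone marrow cells, and all 8 passed the filter on low counts that left 12553 genes for testing. Gene expression was measured by RNA-seq in 9 male C57BL/6 mice, with 1 library per mouse and 3 mice per group. PBS mice received 100 µl of PBS by tail vein on days 1, 3 and 5. EnzR EV mice received extracellular vesicles of human enzalutamide-resistant CWR-R1 prostate cancer cells on those days, as 10 µg of EV protein in 100 µl. The third group received the same EnzR EVs and also HDL NPs, gold-core nanoparticles carrying apolipoprotein A-I and phospholipids that bind the HDL receptor SR-B1, in 100 µl on days 0, 2 and 4. The labels give their concentration as 1 µM, whereas the methods of the study give another. No group received HDL NPs alone, so the effect of HDL NPs was measured only on top of EnzR EVs. No injection on days 0, 2 and 4 is listed for the other groups, so HDL NPs and the added injections cannot be told apart. The cells were enriched by positive selection for CD11b rather than sorted into single types.

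Cells make cholesterol from acetyl-CoA by the mevalonate pathway, which builds isoprenoid units, joins them into squalene and closes squalene into lanosterol, the parent of all later sterols. When membrane cholesterol in the endoplasmic reticulum falls, the escort protein SCAP carries SREBP2 to the Golgi for cleavage, and the freed factor turns on genes of the pathway and of lipoprotein uptake. INSIG proteins hold SCAP back when sterols are plentiful, and HDL and its mimics can take cholesterol from cells. The question put to these 8 genes was whether their mRNA differed between the 3 groups of mice.

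On the mm10 assembly (GRCm38), with GENCODE M21 as annotation, 3 pairs of members share a chromosome. Hmgcs1 lies at chr13:119690379-119708260 and Idi1 at chr13:8885501-8892451, both on the plus strand. Sqle (chr15:59315077-59331192) and Srebf2 (chr15:82147181-82205379) are also on the plus strand. Insig1 lies at chr5:28071363-28078662 on the plus strand and Cyp51 at chr5:4081145-4104746 on the minus strand. Lss is at chr10:76531588-76557138 on the plus strand and Fdft1 at chr14:63145150-63179578 on the minus strand. Exons of 5 members overlap exons of a gene on the opposite strand: Fdft1 shares 774 bases with the protease gene Ctsb and Cyp51 shares 166 bases with Akap9, while Hmgcs1, Lss and Idi1 share 557, 381 and 323 bases with noncoding genes. The library preparation kept strand, but the strand setting of the counting is not given in the sources used here, so counts in these stretches may belong to either gene.

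RefSeq promoter windows on GRCm38.p6, from 250 bases before to 50 after the start of the gene, were matched for 6 of the 8 members, the exceptions being Sqle and Fdft1. The 250 upstream bases of 4 members are printed here because these 4 genes were the most abundant members per length in PBS mice, with capitals marking the motifs on either strand: the sterol regulatory element as TCACNCCAC or its core TCACCCCA, the CCAAT box as CCAAT or ATTGG, and the Sp1 box as GGGCGG or CCGCCC. They cover chr13:119690101-119690350 on the plus strand (Hmgcs1), chr15:82147019-82147268 on the plus strand (Srebf2), chr5:28071162-28071411 on the plus strand (Insig1) and chr5:4104698-4104947 on the minus strand (Cyp51).
Hmgcs1: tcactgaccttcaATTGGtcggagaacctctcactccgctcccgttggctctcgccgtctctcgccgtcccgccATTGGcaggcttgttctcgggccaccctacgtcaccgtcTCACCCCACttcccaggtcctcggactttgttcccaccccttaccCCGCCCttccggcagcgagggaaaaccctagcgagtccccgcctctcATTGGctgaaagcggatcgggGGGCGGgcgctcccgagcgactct
Srebf2: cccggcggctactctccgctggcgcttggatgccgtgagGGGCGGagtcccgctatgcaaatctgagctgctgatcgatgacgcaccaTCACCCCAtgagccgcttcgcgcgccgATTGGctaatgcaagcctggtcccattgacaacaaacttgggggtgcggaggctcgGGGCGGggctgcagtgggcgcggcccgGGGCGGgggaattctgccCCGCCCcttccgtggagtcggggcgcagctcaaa
Insig1: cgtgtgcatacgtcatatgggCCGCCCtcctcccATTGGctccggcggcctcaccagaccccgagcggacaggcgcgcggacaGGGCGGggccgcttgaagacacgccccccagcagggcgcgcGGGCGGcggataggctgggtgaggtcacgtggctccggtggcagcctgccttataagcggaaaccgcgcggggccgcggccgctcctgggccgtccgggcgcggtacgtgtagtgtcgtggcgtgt
Cyp51: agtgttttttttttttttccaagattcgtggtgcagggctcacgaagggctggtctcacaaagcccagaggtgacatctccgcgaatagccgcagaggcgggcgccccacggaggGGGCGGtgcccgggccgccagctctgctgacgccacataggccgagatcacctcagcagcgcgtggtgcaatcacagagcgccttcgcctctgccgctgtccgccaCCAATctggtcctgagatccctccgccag
TCACNCCAC occurred in the window of 1 of the 6 members, Hmgcs1, where it began at position -137 from the start, and in 1.24% of 32851 windows of all genes. The core TCACCCCA, chosen after the sequences had been read, occurred in Hmgcs1 at the same position and in Srebf2 at -162, against 1.56% of all windows. CCAAT and GGGCGG each occurred in 6 of 6 member windows, against 37.4% and 35.7% of all windows. Among 13 other enzymes of sterol synthesis with at least 1 window, TCACNCCAC, the core TCACCCCA, CCAAT and GGGCGG occurred in 0, 0, 11 and 11. The motif TCACNCCAC contains the letters of the core when its N is C, so these matches overlap in Hmgcs1. A match describes letters in the window and not a binding site.

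The libraries differed in depth, from 2575776 to 18110561 counts. The ribosomal RNA gene Rn45s accounted for 20.3% of counts in PBS replicate 1, 42.7% in EnzR EVs replicate 1 and 14.2% in EnzR EVs replicate 3, and between 0.657% and 2.87% in the other 6 libraries. Itgam, which encodes CD11b, stood between 1389 and 2006 CPM in all 9 libraries, where CPM is the usual count relative to library size, scaled by the TMM method. The T cell gene Cd3e was at 0 in 5 libraries and at most 1.65 CPM. Ptprc, a leukocyte gene, was at 1089 to 1317 CPM in the 3 libraries with much Rn45s and 1744 to 2151 CPM in the other 6. Ly6c2, a monocyte marker, was at 101 to 246 CPM and 296 to 596 CPM. Itgam, the leukocyte gene Itgb2 and the monocyte marker Csf1r overlapped between these libraries. Summed over 15 neutrophil and granulocyte markers, the level was 33791 to 72280 CPM in the 3 libraries with much Rn45s and 87766 to 152272 CPM in the other 6. This split was not shared by all granulocyte genes, and the mean log2 CPM of the markers overlapped. S100a8 and S100a9 split as the sum did, whereas Camp, Ltf and Elane overlapped. Mpo went the other way, at 1189 to 1673 CPM in the 3 libraries and 439 to 1065 CPM in the other 6. Ly6g, which marks neutrophils, was not analysed here.

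Per kilobase of exon, Srebf2 was the most abundant member in each group and Idi1 the least. In PBS mice the mean levels were 29.3 CPM per kb for Srebf2, 15.5 for Hmgcs1, 14.5 for Insig1, 8.24 for Cyp51, 6.57 for Fdft1, 5.44 for Sqle, 1.10 for Lss and 0.422 for Idi1. In that order the ranges over mice of neighbouring genes overlapped, apart from Srebf2 and Hmgcs1 and from Sqle and Lss. In EnzR EVs + HDL NPs mice the order was Srebf2 (19.8 CPM per kb), Hmgcs1 (13.6), Insig1 (9.56), Cyp51 (5.57), Sqle (4.42), Fdft1 (3.62), Lss (0.702) and Idi1 (0.485), and the only neighbours whose ranges overlapped were Sqle and Fdft1. EnzR EV mice had Srebf2 at 34.7 CPM per kb and Insig1 (13.9) just above Hmgcs1 (13.5). Among other enzymes of the pathway, Idi2, another isomerase, had 4 counts in total across the 9 libraries and was not tested.

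**Figure D1:**
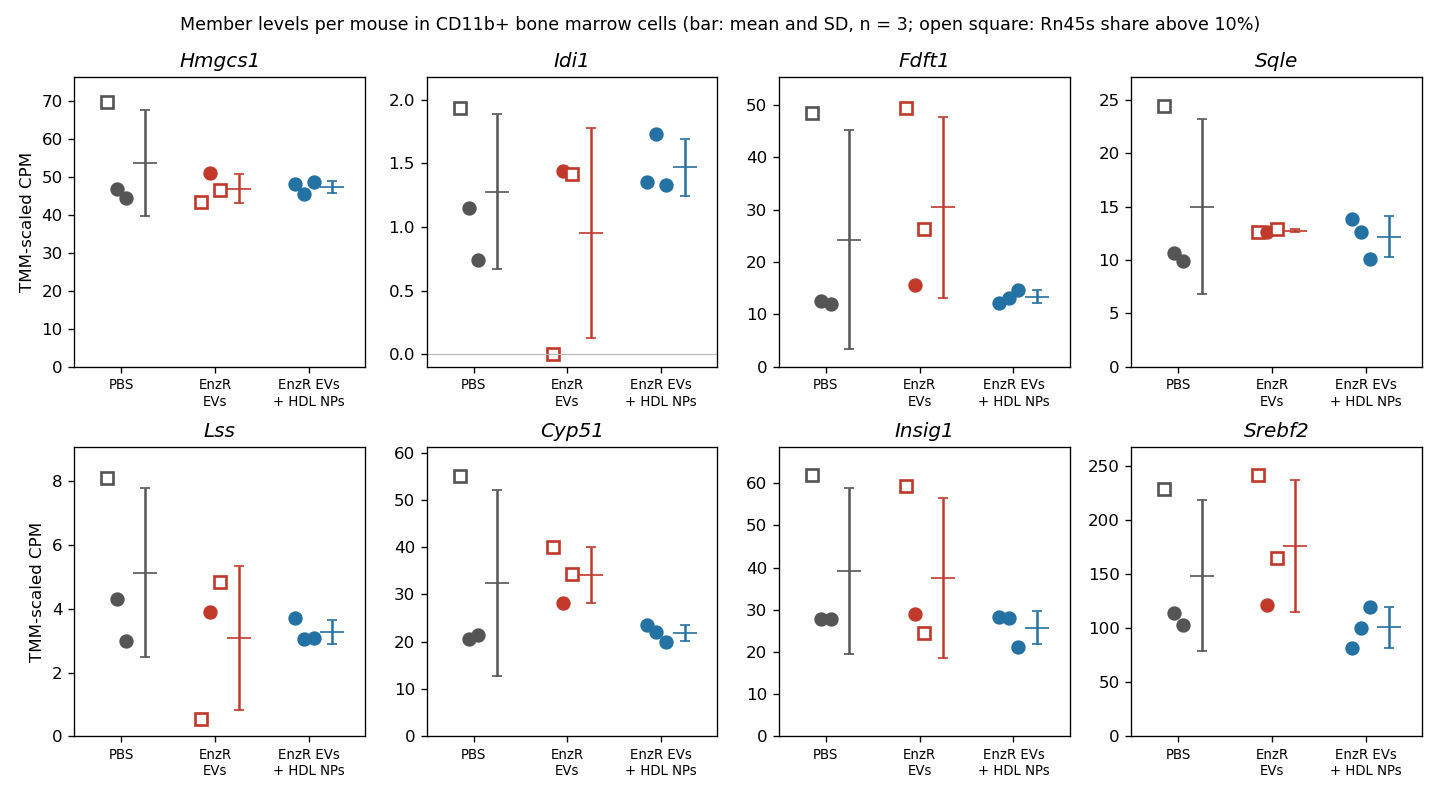
TMM-scaled CPM of each member in each mouse (y axis), by group (x axis), with the mean and SD of 3 mice beside the points. Open squares are the 3 libraries in which Rn45s took more than 10% of counts. PBS replicate 1 is the highest PBS mouse in all 8 panels. The EnzR EVs + HDL NPs mice have a smaller SD than the PBS mice in each panel. For Sqle the EnzR EV mice lie closest together.

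Srebf2, which encodes SREBP2, stood at 229, 114 and 103 CPM in PBS replicates 1, 2 and 3, at 242, 121 and 165 CPM in the EnzR EV mice and at 81.8, 100.3 and 120 CPM in the EnzR EVs + HDL NPs mice. All 3 mice given HDL NPs were below all 3 given EnzR EVs alone, though the closest pair, at 120 and 121 CPM, nearly touched. The mean was 101 ± 19.0 CPM with HDL NPs against 176 ± 61.1 CPM with EnzR EVs (SD, n = 3). This was the only member with an unadjusted p under 0.05 by edgeR in any comparison: the log2 fold change was -0.80 with an SE of 0.335 and a 95% interval of -1.54 to -0.056 in edgeR's quasi-likelihood fit to all genes, and it did not pass after Benjamini-Hochberg adjustment over 12553 genes (edgeR adjusted p = 0.461). Without EnzR EVs replicate 1 the log2 fold change was -0.51. The microRNA gene Mir33, in an intron of Srebf2, had 0 counts in 8 of 9 libraries and 2 in the other, so no level could be given for it.

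Insig1, whose product retains SCAP and SREBP2 in the endoplasmic reticulum and whose gene is itself an SREBP2 target, was at 62.0, 27.8 and 27.7 CPM in PBS mice, 59.3, 28.9 and 24.6 CPM in EnzR EV mice and 28.3, 28.0 and 21.2 CPM with HDL NPs. Replicate 1 of both PBS and EnzR EVs stood above the other 7 mice, which lay between 21.2 and 28.9 CPM. The groups overlapped in every comparison. Against EnzR EVs the log2 fold change with HDL NPs was -0.49 (95% interval -1.34 to 0.37), and without EnzR EVs replicate 1 it was -0.062.

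Hmgcs1, the cytosolic HMG-CoA synthase of the early mevalonate pathway, was at 69.9, 47.0 and 44.6 CPM in PBS mice. The other 6 mice lay between 43.3 and 51.0 CPM, so 8 of 9 libraries were within a narrow range and PBS replicate 1 stood above it. HDL NPs and EnzR EVs differed by a log2 fold change of 0.0074, with a 95% interval of -0.42 to 0.43, the narrowest of the 8 members. Idi1, the isomerase that makes dimethylallyl diphosphate, was the least abundant member, at 1.94, 1.15 and 0.744 CPM in PBS mice, 0, 1.44 and 1.42 CPM in EnzR EV mice and 1.35, 1.73 and 1.33 CPM with HDL NPs. The 0 came from the smallest library, in which 3 counts, the limit that a count of 0 allows, correspond to 1.65 CPM, which is above the Idi1 level of 6 of the other 8 mice.

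Fdft1, squalene synthase, which commits farnesyl diphosphate to sterols, had the largest coefficient of variation over the 9 libraries, 68.2%. It stood at 48.4, 12.6 and 11.9 CPM in PBS mice, 49.4, 15.6 and 26.2 CPM in EnzR EV mice and 12.2, 13.2 and 14.7 CPM with HDL NPs. The 3 mice with HDL NPs were all below the 3 with EnzR EVs, whereas of the PBS mice 1 was above, 1 within and 1 below their range. The log2 fold change between them was -1.12 (SE 0.553, 95% interval -2.34 to 0.11; edgeR adjusted p = 0.461), and it was -0.64 without EnzR EVs replicate 1. Ctsb, whose exons overlap Fdft1, ran between 263 and 576 CPM and was lowest in EnzR EVs replicate 1, where Fdft1 was highest.

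Sqle, squalene epoxidase, was at 24.5, 10.6 and 9.90 CPM in PBS mice, 12.6, 12.7 and 12.9 CPM in EnzR EV mice and 13.8, 12.6 and 10.1 CPM with HDL NPs. PBS replicate 1 was again apart, and the other 8 mice lay between 9.90 and 13.8 CPM. Lss, lanosterol synthase, which closes the ring system, was at 8.10, 4.31 and 2.97 CPM in PBS mice, 0.549, 3.89 and 4.85 CPM in EnzR EV mice and 3.72, 3.04 and 3.07 CPM with HDL NPs. The low value in EnzR EVs replicate 1 was a single count, below the floor of 3 counts (1.65 CPM) for that library. Neither gene separated any 2 groups.

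Cyp51, the lanosterol demethylase, was at 55.1, 20.6 and 21.4 CPM in PBS mice, 40.1, 28.1 and 34.3 CPM in EnzR EV mice and 23.5, 22.1 and 20.0 CPM with HDL NPs. The mice with HDL NPs were all below those with EnzR EVs, and PBS replicates 2 and 3 lay within their range. The log2 fold change against EnzR EVs was -0.62 (SE 0.348, 95% interval -1.39 to 0.15; edgeR adjusted p = 0.483), and without EnzR EVs replicate 1 it was -0.52. Akap9, which overlaps Cyp51 on the other strand, was at 47.2 to 70.8 CPM in the 3 libraries with much Rn45s and at 83.7 to 116 CPM in the other 6, the reverse of the split of Cyp51.

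EnzR EVs were compared with PBS to ask what conditioning by tumour EVs did to the pathway. By edgeR, 0 of 8 members were called at an adjusted p under 0.05, as were 0% of all tested genes, and DESeq2 (0.0876% of genes) and limma voom called 0 members as well. At an unadjusted p under 0.05 edgeR had 0 of 8 members against 3.47% of tested genes, and 0 members had groups that did not overlap, against 7.96% of tested genes. The log2 fold changes ran from -0.46 (Lss) to 0.29 (Fdft1), with 4 higher and 4 lower in the fit. Idi1, fitted at 0.028, was the lower of the 2 by group means, at 0.952 CPM with EnzR EVs and 1.28 CPM in PBS mice. The members' median log2 fold change was -0.036 beside -0.027 over all tested genes. These estimates turned on PBS replicate 1: without it, the median over members was 0.36 and the log2 fold changes of Cyp51, Srebf2 and Fdft1 were 0.67, 0.68 and 1.22, with 3 members at an unadjusted p under 0.05, as were 8.31% of the genes tested in that setting, and none past adjustment (smallest edgeR adjusted p 0.587). Deviations of same-numbered libraries of these groups from their group means correlated at 0.473, 0.492 and 0.131. PBS replicate 3 correlated more with EnzR EVs replicate 2 (0.429) than with its own number, so a pairing by number was not established. With the replicate number as a block edgeR called 1 gene and 0 members. In these bulk samples fewer cells of a type and less RNA per cell cannot be told apart.

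EnzR EVs + HDL NPs were compared with PBS to ask whether the full treatment left the pathway at its starting level. By edgeR 0 of 8 members were called (0% of tested genes), with 0 at an unadjusted p under 0.05 (2.13% of tested genes) and 0 with separate groups (13.2% of tested genes), and DESeq2 (0.0637% of genes) and limma voom called 0. Members were lower in 7 of 8 cases, Idi1 being the exception at 0.30, and the median log2 fold change was -0.55 beside -0.0072 over all tested genes. The lowest values were -0.82 for Fdft1 (95% interval -2.02 to 0.37), -0.59 for Lss and -0.59 for Insig1. Without PBS replicate 1 the median was 0.054 and Hmgcs1, Sqle, Cyp51 and Fdft1 were on the higher side, at 0.050, 0.25, 0.057 and 0.13. Insig1, Lss and Srebf2 were on the lower side still, at -0.11, -0.15 and -0.11.

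EnzR EVs + HDL NPs were compared with EnzR EVs to ask what differed with HDL NPs and their added injections in mice given the same EVs. By edgeR 0 of 8 members were called (0% of tested genes), again with 0 by DESeq2 (0.00797% of genes) and limma voom. Cyp51, Fdft1 and Srebf2 had groups that did not overlap, all 3 lower with HDL NPs, where 8.58% of tested genes did so in that direction and 17.6% in either. At an unadjusted p under 0.05 there was 1 member of 8, Srebf2, where 6.97% of tested genes were lower and 10.6% differed in either direction. Without EnzR EVs replicate 1 there were 0 of 8, where 5.19% of the genes tested in that setting passed. Over the 6 fits that each omit 1 of these mice, the members' count ran from 0 to 2 and the share of all tested genes from 5.19% to 29.3%. The count was 3 of 8 when the 6 libraries were fitted alone (9.18% of tested genes), with the replicate number as a block (18.2%) and without the 2 libraries of lowest total (10.8%), and no member passed adjustment in any of these. The median log2 fold change of the members was -0.31 beside 0.033 over all tested genes. This comparison and the preceding ones share their groups, so their values are not independent of each other.

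**Figure D2:**
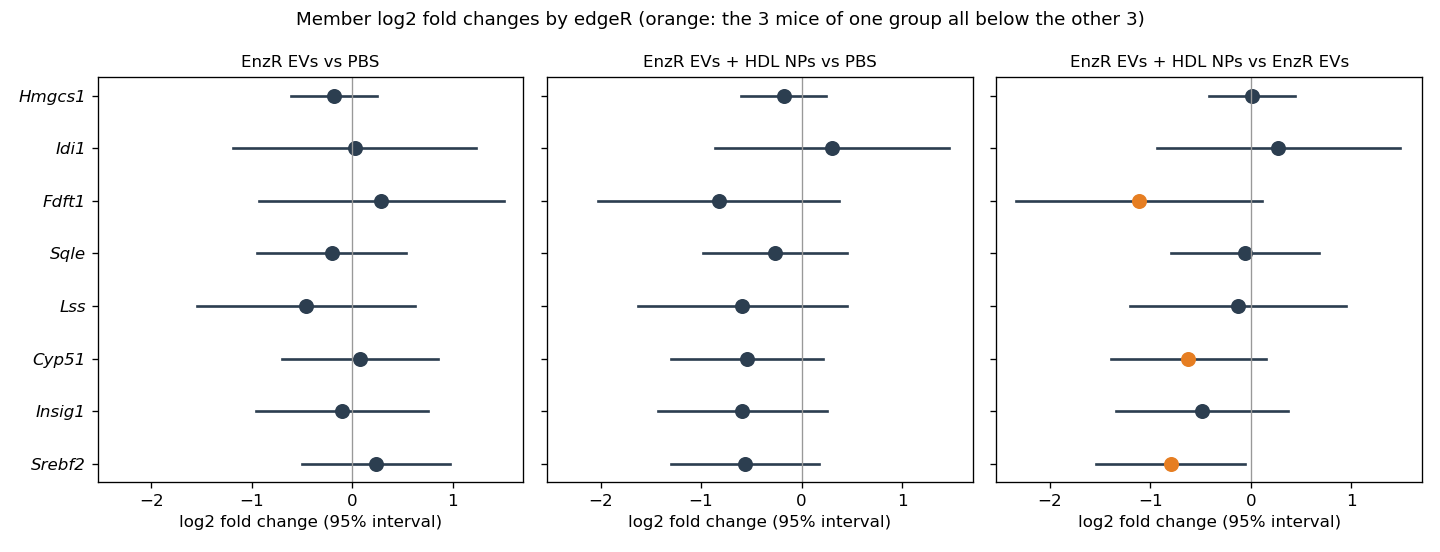
log2 fold change (x axis) of each member (y axis) in the 3 comparisons, with 95% intervals from edgeR as lines. Orange points are Cyp51, Fdft1 and Srebf2 in the comparison of EnzR EVs + HDL NPs with EnzR EVs, whose groups did not overlap. Of the 24 intervals, that of Srebf2 in this comparison, from -1.54 to -0.056, leaves out 0.

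By Rn45s share, 3 of the 8 members split without overlap. Cyp51, Fdft1 and Srebf2 were higher in each of the 3 libraries with more than 10% Rn45s than in any of the other 6, where 15.5% of tested genes were above in this way and 17.9% below. Cyp51 was at 34.3 to 55.1 CPM in those 3 and at 20.0 to 28.1 CPM in the other 6. Fdft1 was at 26.2 to 49.4 CPM against 11.9 to 15.6 CPM, and Srebf2 at 165 to 242 CPM against 81.8 to 121 CPM. EnzR EVs had 2 of these 3 libraries and the group with HDL NPs had 0. Among the other 6 libraries, the coefficient of variation of the members was 4.86% for Hmgcs1, 25.4% for Idi1 and between 10.7% (Insig1) and 15.8% (Lss) for the other 6, with Fdft1 at 11.2%. Over all 9 libraries it was 40.7% for Srebf2 and 40.1% for Cyp51.

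**Figure D3:**
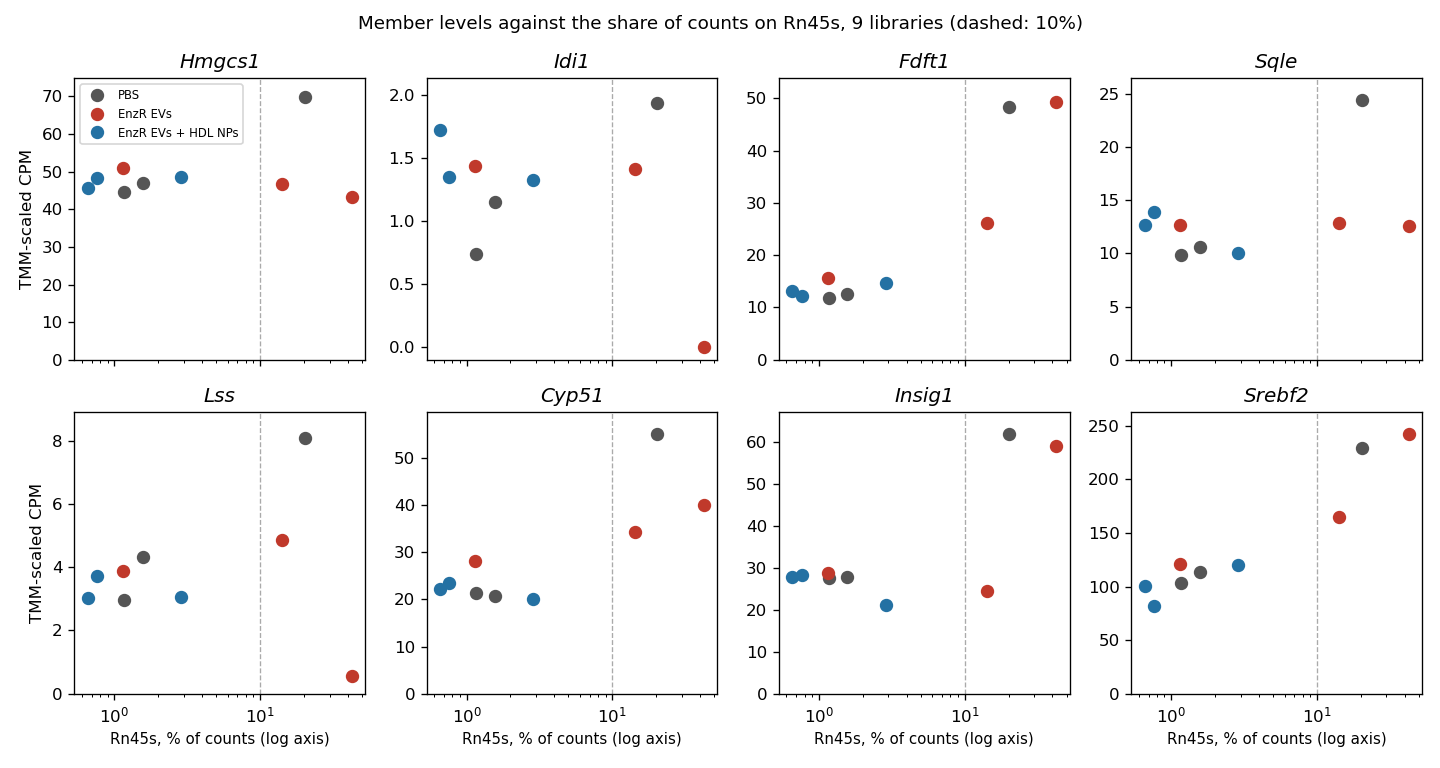
TMM-scaled CPM of each member (y axis) against the percent of a library's counts on Rn45s (x axis, log scale) in 9 libraries coloured by group, with the 10% line dashed. For Fdft1, Cyp51 and Srebf2 the 3 points right of the line are above the 6 to its left. Idi1 and Lss have their lowest value in the library with 42.7% Rn45s, which is also the smallest.

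With the 3 libraries left out, a choice made after seeing the data, EnzR EVs kept 1 library, and the log2 fold changes with HDL NPs against EnzR EVs were -0.36 for Cyp51, -0.23 for Fdft1 and -0.27 for Srebf2, with a smallest edgeR adjusted p of 0.958 among members. The lone EnzR EV library is assumed there to vary like the other groups. The neutrophil marker sum given above and the Rn45s share both moved with these values. The mean log2 CPM of the same markers overlapped between the 3 libraries and the other 6, and Mpo was higher in the 3. The part of each of these in the result was not tested. The sum over 9 T and NK cell markers was 65.8 to 87.8 CPM in those 3 libraries and 34.5 to 62.0 CPM in the other 6, with at most 1 gene at 0. The mean log2 CPM of the 7 tested T and NK markers overlapped, at 2.02 to 2.19 and 1.76 to 2.59. PBS replicate 1 and EnzR EVs replicate 1 were also the 2 libraries with the lowest total counts, and the summed level of the 8 members was 499 and 447 CPM there, 315 CPM in EnzR EVs replicate 3 and 213 to 263 CPM in the other 6.

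PBS replicate 1 held the highest value of 6 of the 8 members (75%), where it held the highest value of 10.7% of tested genes. Fdft1 and Srebf2 were highest in EnzR EVs replicate 1. The ratio of PBS replicate 1 to the mean of the other PBS mice was above 1.5 for all 8 members, against 15.6% of tested genes, and it ran from 1.53 (Hmgcs1) to 3.95 (Fdft1) with a median of 2.23, beside a median of 0.974 over all tested genes. Of 15 other enzymes tested, 6 had a ratio above 1.5, among them Fdps (2.57), Mvk (1.98), Dhcr7 (1.91) and Pmvk (1.73). Enzymes of later steps, Dhcr7 being one, went both ways. Lbr was at 0.978, Ebp at 0.818 and Nsdhl at 0.706, below the other PBS mice. Tm7sf2 (1.47), Sc5d (1.22) and Hsd17b7 (1.06) were, like Dhcr7, above the mean of the other PBS mice.

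The other enzymes of sterol synthesis numbered 16, of which 15 were tested. Their median log2 fold change was -0.071 for EnzR EVs against PBS, -0.24 for EnzR EVs + HDL NPs against PBS and -0.12 for EnzR EVs + HDL NPs against EnzR EVs, and 0 were called by edgeR or DESeq2 in each. At an unadjusted p under 0.05 there were 0, 1 and 1, all lower. Mvk, mevalonate kinase, was at 10.2, 5.23 and 5.09 CPM in PBS mice and 3.49, 4.77 and 3.63 CPM with HDL NPs (log2 fold change -0.75, edgeR adjusted p = 1.00). The mean of PBS replicates 2 and 3 alone was 5.16 CPM, against 6.84 CPM over the 3 PBS mice and 3.96 CPM with HDL NPs. Fdps, farnesyl diphosphate synthase, differed in the 3 comparisons by log2 fold changes of 0.11, -0.61 and -0.72. It was at 35.0, 13.5 and 13.8 CPM in PBS mice, 19.8, 26.9 and 18.6 CPM in EnzR EV mice and 14.8, 13.1 and 12.1 CPM with HDL NPs. The values against PBS thus rest on PBS replicate 1, since the other PBS mice lay within the range with HDL NPs and below all 3 EnzR EV mice. Hsd17b7, Tm7sf2, Nsdhl, Mvd and Sc5d, enzymes of other steps, were on the higher side with HDL NPs against EnzR EVs, at 0.39, 0.42, 0.33, 0.20 and 0.23. In the fit Ebp was at 0.0070 and the other 9 enzymes tested were on the lower side, and none passed adjustment by edgeR. Among these 9, Acat2 was fitted at -0.078 but was higher by group means, at 4.48 CPM with HDL NPs and 4.40 CPM with EnzR EVs.

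**Figure D4:**
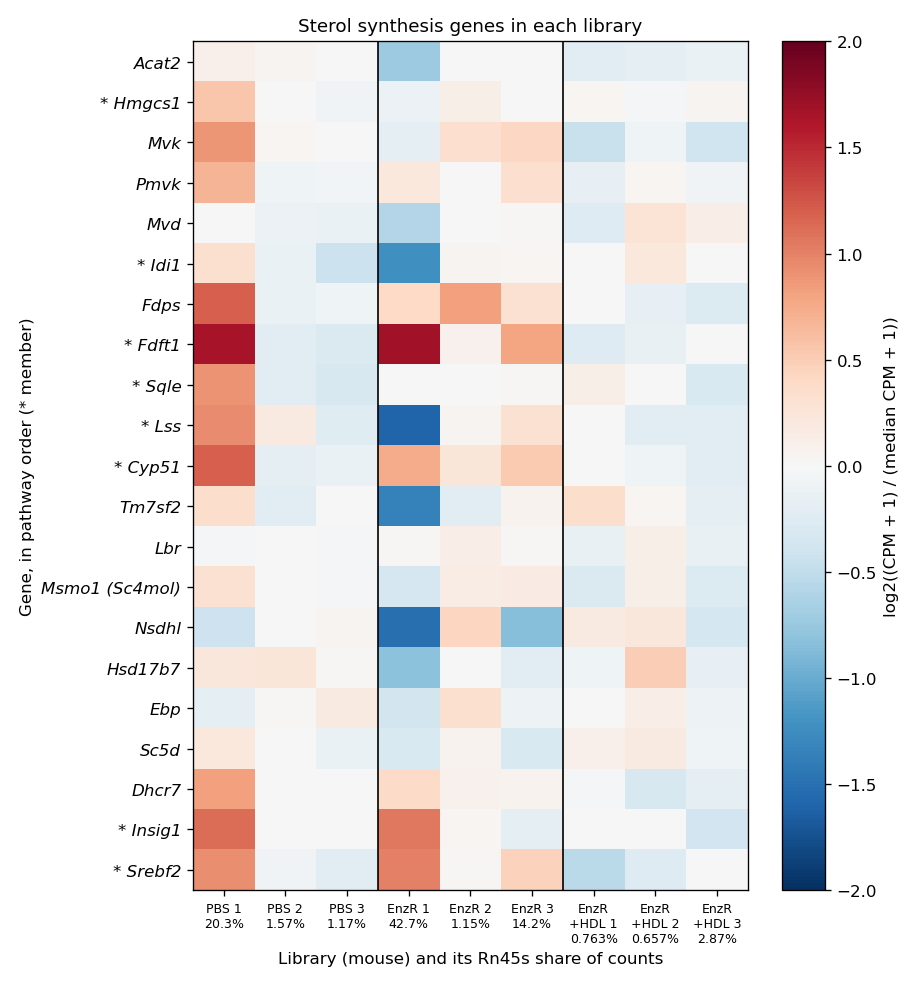
Level of 21 sterol synthesis and control genes in each library, as the log2 ratio of CPM + 1 to the median CPM + 1 over the 9 libraries (colour, red above and blue below), with genes in pathway order (y axis, members starred) and libraries with their Rn45s share (x axis). PBS replicate 1 is above the median for all 8 members, and EnzR EVs replicate 1 is high for Fdft1, Insig1 and Srebf2 and low for Lss, Idi1, Nsdhl and Tm7sf2.

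A list headed other SREBP2 targets and SREBP machinery held 14 genes, of which 0 were called in any comparison by edgeR. Whether SREBP2 controls each of them was not tested. Scap, the escort of SREBP2, was at 39.8, 39.2 and 40.8 CPM in PBS mice, 45.5, 40.0 and 46.6 CPM in EnzR EV mice and 37.5, 35.6 and 35.6 CPM with HDL NPs, the last 3 below all the others. Srebf1, the sister gene of Srebf2, was at 60.7, 40.0 and 40.6 CPM in PBS mice, 48.3, 46.1 and 49.9 CPM in EnzR EV mice and 38.2, 37.2 and 36.3 CPM with HDL NPs. Stard4, a cytosolic sterol carrier, was at 47.2, 18.0 and 15.7 CPM in PBS mice, 38.4, 18.8 and 33.2 CPM in EnzR EV mice and 16.8, 13.6 and 21.4 CPM with HDL NPs, so its high libraries were those with much Rn45s. Tmem97, an endoplasmic reticulum protein linked to sterol transport, was lower with HDL NPs than with EnzR EVs, at 4.54 against 7.90 CPM (log2 fold change -0.77, edgeR adjusted p = 0.461), and was 1 of 3 genes of the 14, with Scap and Srebf1, whose groups were separate in that direction, as were 8.58% of all tested genes. Hilpda, a lipid droplet protein, was at 10.9, 6.61 and 5.21 CPM in PBS mice and 2.98, 4.71 and 2.38 CPM with HDL NPs (log2 fold change -1.14, edgeR adjusted p = 1.00). Insig2, the sister gene of Insig1, had the lowest log2 fold change of the list for EnzR EVs against PBS, at -0.39, with 2.74 CPM in EnzR EVs replicate 1 and 11.5 to 16.0 CPM in the other 8 mice. Rnf139, a ubiquitin ligase of the endoplasmic reticulum, had the highest with HDL NPs, at 0.22 against PBS and 0.47 against EnzR EVs. Its level was 34.0 to 49.5 CPM in the libraries with much Rn45s and 60.3 to 70.1 CPM in the others.

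Genes of fatty acid synthesis, which SREBP1 mainly controls, were described beside the members. Scd2 was at 168, 39.3 and 41.9 CPM in PBS mice, 192, 64.7 and 86.4 CPM in EnzR EV mice and 45.6, 27.1 and 35.7 CPM with HDL NPs. Its 3 highest values were those of the libraries with much Rn45s. Against EnzR EVs, Scd2, a stearoyl-CoA desaturase, was at 36.1 CPM with HDL NPs and 114 CPM without (log2 fold change -1.64), and Fasn, fatty acid synthase, at 29.2 and 62.8 CPM (-1.07), both at an unadjusted p under 0.05 and neither passing adjustment (edgeR adjusted p = 0.461 for both). Fasn too was highest in the 3 libraries with much Rn45s, at 46.8 to 98.8 CPM. Lpin1, a phosphatidate phosphatase, was on the other side, at 12.8 and 8.95 CPM (0.52, edgeR adjusted p = 0.461), and against PBS mice, at 15.2 CPM, it was lower with EnzR EVs (-0.77, edgeR adjusted p = 0.928). Fads2, a fatty acid desaturase, and Elovl5, an elongase, were the other extremes of the list, Fads2 at 0.52 for EnzR EVs against PBS and -1.70 for HDL NPs against EnzR EVs, from 1 to 16 counts per library, and Elovl5 at 0.050 for HDL NPs against PBS. The median over 13 tested genes of the list was -0.32, beside 0.033 over all tested genes. Of 15 tested genes of sterol export, storage and oxysterols, 4 were lower and 11 higher in that comparison, with Soat1, which esterifies cholesterol for storage, at 274 against 518 CPM (-0.91) and highest in the same 3 libraries, at 440 to 818 CPM. Ncor1, a corepressor of nuclear receptors, was at 539 against 388 CPM (0.47, edgeR adjusted p = 0.461). It was lowest in the same 3 libraries, at 284 to 410 CPM, against 470 to 622 CPM in the others. Cyp27a1, which makes an oxysterol, was at 12.5 CPM with EnzR EVs against 24.2 CPM in PBS mice (-0.87, edgeR adjusted p = 0.928) and 22.2 CPM with HDL NPs. Apoe, a lipid carrier, was at 121 CPM with EnzR EVs and 115 CPM with EnzR EVs + HDL NPs against 202 CPM in PBS mice (-0.74 and -0.82, edgeR adjusted p = 0.928 and 1.00). Abca1, the cholesterol exporter, was at 31.0 and 33.3 CPM against 49.5 CPM (-0.69 and -0.58). The sum over 10 macrophage markers was 760 to 1390 CPM in PBS mice, 604 to 738 CPM with EnzR EVs and 692 to 897 CPM with HDL NPs, and like Apoe and Abca1 it was highest in PBS replicate 3. Its part in these values was not tested. The 12 isoprenoid and prenylation genes, which branch from the pathway at farnesyl diphosphate, had medians of 0.098, -0.073 and -0.19 in the 3 comparisons. Their extremes in each were Rabggta, a Rab prenylation subunit (0.45, -0.34 and -0.80), and Ggps1, geranylgeranyl diphosphate synthase (-0.44, 0.15 and 0.59). Rabggta was at 33.0 to 65.8 CPM in the 3 libraries with much Rn45s and at 18.2 to 25.2 CPM in the others. Ggps1 was at 8.23 to 12.3 CPM in those 3 and at 15.2 to 22.9 CPM in the others.

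The genes whose pattern over the 9 libraries was most like the mean of the 8 members were named by Pearson correlation of log2 CPM, as a description. Srp19, of the signal recognition particle, stood at the top (r = 0.954), and the 10 most alike also held Selm (0.942), Tyk2 (0.930), Gpr35 (0.929), Pmvk (0.921), Dpysl2 (0.912), Wbp5 (0.911) and Tmem86b (0.910). Pmvk, phosphomevalonate kinase, is an enzyme of the pathway, and all 10 were highest in PBS replicate 1. Without PBS replicate 1 and EnzR EVs replicate 1 the correlation over 7 libraries was 0.752 for Pmvk and 0.931 for Srp19. The points share library depth and composition, which differ as given above. Each member's own correlation with the mean of the other 7 ran from 0.0093 (Idi1) to 0.924 (Sqle) over 9 libraries. Over the 7 it ran from -0.11 (Insig1) to 0.892 (Cyp51), with Hmgcs1 at 0.277 against 0.841 over 9, and Idi1 at 0.462.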

How the data were processed

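The authors trimmed adapters with cutadapt 1.13, removed poor-quality and rRNA reads, aligned to mm10 with STAR (version not given in the sources used here) and deposited raw read counts per gene made with HTSeq 0.6.1p1 on the UCSC annotation, from rRNA-depleted total RNA. The deposited counts carry no normalization. They were fitted here with edgeR 4.0.16 under R 4.3.3, using TMM scaling, the filterByExpr filter, a robust quasi-likelihood fit to 9 libraries with a coefficient per group, 3 two-sided contrasts, and Benjamini-Hochberg adjustment over 12553 genes with a threshold of 0.05. Values are TMM-scaled CPM and log2 CPM has a prior count of 2. DESeq2 1.42.0 and limma voom 3.58.1 were alternatives, with other normalizations, filters and left-out libraries. Levels per kilobase used exons of GENCODE M21 transcripts matched to RefSeq. Floors of 3 counts cover counting error only. The fits were tested on simulated data. Deviations from the group means correlated at 0.473, 0.492 and 0.131 between the same-numbered libraries of PBS and EnzR EVs. Between their libraries of different number the correlation ran from -0.533 to 0.429. No label says what a number marks, so a pairing by number was not established. The members and gene lists were chosen with earlier results of these data known. The named genes were all 8 members, the other sterol synthesis enzymes, and from each further list the genes with an unadjusted p under 0.05 and those at either extreme. The genes most like the members were the 10 with the highest correlation to their mean. The leave-out of the 2 libraries with the lowest totals or of the 3 with more than 10% Rn45s, the motif core, the PBS replicate 1 ratio, and a few pathway genes named for their role (Scap, Srebf1, Stard4) were chosen after seeing the data. Some genes of these lists are not reported here.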

Additional observations from a re-analysis of the deposited data

How the results depend on the processing

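The count of members called by an adjusted p under 0.05 was 0 in every comparison and setting run. Depth limits Idi1 and Lss in the smallest library, where the floor of 3 counts is 1.65 CPM. Genes called over the whole table were 0 by edgeR in each comparison, and 11, 8 and 1 by DESeq2. For EnzR EVs against PBS they were 1 with no filter on low counts, 5 without the 2 libraries with the lowest totals, 10 without the 3 libraries with most Rn45s, and 0 to 2 with each replicate left out (2 without PBS replicate 1). For EnzR EVs + HDL NPs against EnzR EVs they were 1 with 6 libraries only, 1 without the 2 libraries and 1 without the 3. Scaling by library size alone moved the median of all genes to -0.18, 0.047 and 0.24 in the 3 comparisons, from -0.027, -0.0072 and 0.033. Filtering for at least 10 counts in every library left out Idi1 and Lss.

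The deviations of same-numbered libraries correlated at 0.174 on average over 9 pairs, with 6 above 0.1 and the lowest at -0.175, against -0.076 on average over 18 pairs of different number, with 6 above 0.1. In both comparisons with HDL NPs at least 1 same-numbered pair was below 0.1. In every comparison the samples are known to share only a number. Of the 9 libraries, 5 correlated best with their own number. With the replicate number as a block, 1 gene was called for EnzR EVs against PBS, 0 members were called, and the log2 fold change of Hmgcs1 for EnzR EVs + HDL NPs against EnzR EVs was -0.0049.

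Member log2 fold changes that turned their sign, none of them called, were these, and the cause was not tested. For EnzR EVs against PBS, Sqle was 0.040 by limma voom, and Idi1 and Cyp51 were -0.046 and -0.076 by library size alone. Without the 2 libraries Hmgcs1, Sqle and Lss were 0.10, 0.32 and 0.25, and without the 3 Hmgcs1, Sqle, Insig1 and Lss were 0.16, 0.31, 0.060 and 0.096. With each replicate left out Hmgcs1 ran from -0.30 to 0.039, Sqle from -0.43 to 0.31, Insig1 from -0.52 to 0.37, Idi1 from -0.30 to 0.36, Cyp51 from -0.15 to 0.67, Fdft1 from -0.17 to 1.22 and Srebf2 from -0.048 to 0.68. For EnzR EVs + HDL NPs against PBS, Hmgcs1, Sqle, Cyp51 and Fdft1 were 0.051, 0.25, 0.059 and 0.13 without the 2 libraries, and 0.051, 0.25, 0.059 and 0.13 without the 3. With each replicate left out they ran from -0.31 to 0.050, from -0.51 to 0.25, from -0.80 to 0.057 and from -1.18 to 0.13, and Idi1 from -0.017 to 0.63. For EnzR EVs + HDL NPs against EnzR EVs, Hmgcs1 was -0.011 by DESeq2, -0.014 by limma voom, -0.0081 with DESeq2 size factors, -0.012 by upper quartile, -0.016 with 6 libraries only, -0.0047 with Rn45s, mitochondrial and hemoglobin genes left out, -0.050 without the 2 libraries and -0.11 without the 3, and ran from -0.049 to 0.049 with each replicate left out. By library size alone Sqle was 0.15 and Lss 0.029. With each replicate left out Sqle ran from -0.17 to 0.040 and Lss from -0.41 to 0.18.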
